A study of Astyanax mexicanus with 14 samples.

Results

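The genes described here were those with far higher transcript levels in Pachón cavefish than in surface fish of the Mexican tetra, Astyanax mexicanus. They numbered 56 of the 19076 genes in the count table. A member had a mean of at least 50 counts over the cave controls and a cave minus surface difference of at least 2.5 in controls on the log2 scale. In addition, its lowest value in any of the 6 cave libraries lay above its highest value in any of the 8 surface libraries. Expression on that scale was the log2 of counts per mega-count (CPM) with TMM scaling, which evens out differences in library composition, and a prior count of 2. The population difference therefore chose the members and is given below as a description without a test.

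Larvae of both populations were 6 days post-fertilization, of the surface morph or the Pachón cave morph. At lights on, they were exposed to 60 s of UV-B or kept as a white light control. After 90 min, 4 larvae were pooled for each whole-body library. Surface fish gave 4 control and 4 UV-B libraries, and cavefish gave 3 control libraries (numbered 2, 3 and 4) and 3 UV-B libraries (numbered 1, 2 and 4). Each population was a laboratory stock under a single label, so population, stock and rearing batch cannot be told apart. The study gives the same temperature and light cycle for the larvae of both populations. Replicates were separate pools that may share parents.

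Surface fish of this species live in rivers, and Pachón is among the populations that became established in caves and lost functional eyes. Transcript levels in whole larvae combine the activity of each cell with the number of cells of each type, and fewer cells of a type and less RNA per cell cannot be told apart in such libraries. UV-B is the band of sunlight that damages DNA and that converts a sterol in skin to vitamin D3. Light also sets the circadian clock of fish, in which a loop of transcription factors drives rhythmic output genes.

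Gene names were taken from the name column of gene lists that accompany the study. These lists were ordered by response to UV-B, so names were available mainly for genes that responded. Only 2 members carried a name, cyp2r1 (ENSAMXG00000034177) and dbpb (ENSAMXG00000042954). The gene cyp2r1 encodes the main vitamin D 25-hydroxylase of vertebrates, and dbpb encodes a PAR bZIP transcription factor of the D-box binding family, an output arm of the circadian clock. Another 2 members, ENSAMXG00000037306 and ENSAMXG00000035834, were listed as protein coding without a name. The remaining members are given by identifier only, and no function is assigned to them.

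Libraries held between 7.42 and 15.26 M counts, so that 3 counts, taken as the limit that a count of 0 allows, corresponded to between 0.177 and 0.460 CPM on the TMM-scaled CPM used throughout. This limit covers counting error only. The deposited counts were also lower than those of a count sheet supplied with the study for nearly all genes in the part of it that was compared, so near-zero levels in surface fish describe the deposited counts. The TMM factors ran from 0.76 to 0.88 in the cave UV-B libraries and from 1.11 to 1.19 in surface controls. All 17 retinal marker genes were lower in cave controls, where their summed level was 49.5 to 59.8 CPM against 3119 to 4020 CPM in surface controls, and none was at 0 in every library of a group. Of 13 enterocyte markers, 1 was higher and 7 were lower in cave controls, with sums of 1220 to 1873 CPM against 1826 to 3220 CPM. Of 9 skeletal muscle markers, 3 were higher and 1 was lower, with sums of 19655 to 31238 CPM against 14853 to 17156 CPM. The part of these cell type differences in the members' levels was not tested.

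Among all genes, 12017 reached the mean of 50 counts in cave controls, 58 of these also reached the difference of 2.5, and 56 had no overlap between populations. The same rule with the populations exchanged returned 231 genes. The cave minus surface difference of the members in controls had a median of 4.00 and ran from 2.53 to 7.33 on the log2 scale. It was at least 5 in 8 members, between 4 and 5 in 20, between 3 and 4 in 14 and under 3 in 14. The edgeR quasi-likelihood test of the same contrast called all 56 members higher, beside 12.7% of all genes tested, and nothing is read from this since the contrast chose them.

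**Figure D1:**
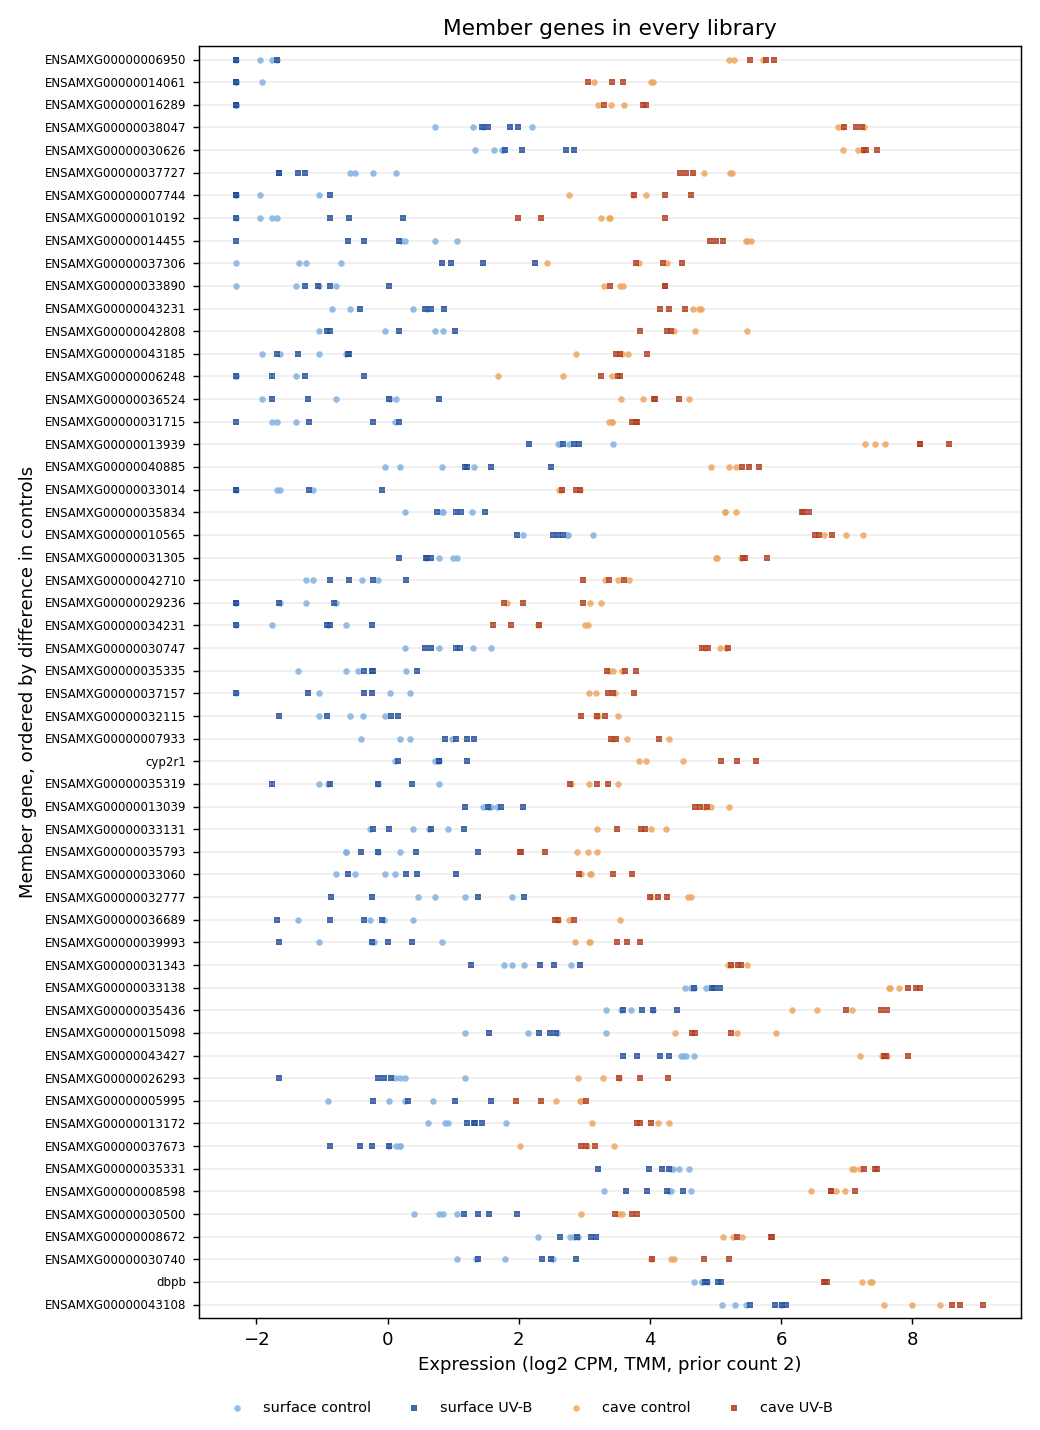
Log2 CPM (TMM scaling, prior count of 2) of the 56 members in each of the 14 libraries, with 1 line per gene, ordered by the cave minus surface difference in controls. Light and dark blue points are surface control and surface UV-B libraries, and orange and red points are cave control and cave UV-B libraries. In every line the cave points lie to the right of the surface points, as the rule required, with a gap of 0.19 to 6.89.

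The members near each threshold were as follows. The smallest differences among members were 2.53 in ENSAMXG00000043108, 2.54 in dbpb and 2.55 in ENSAMXG00000030740, and the largest among genes just outside were 2.46 in ENSAMXG00000032459, 2.46 in ENSAMXG00000030594 and 2.43 in ENSAMXG00000035685. The lowest mean counts among members were 59.0 in ENSAMXG00000033014, 59.3 in ENSAMXG00000006248 and 62.7 in ENSAMXG00000005995. Just outside were 47.3 in ENSAMXG00000040370, 46 in ENSAMXG00000041410 and 45.7 in ENSAMXG00000040026. The smallest gaps between the lowest cave and the highest surface library were 0.19 in ENSAMXG00000037306, 0.37 in ENSAMXG00000005995 and 0.64 in ENSAMXG00000035793. The remaining 2 genes past both other thresholds had overlapping populations, with gaps of -0.42 in ENSAMXG00000004948 and -4.33 in gck (ENSAMXG00000034250), which encodes the liver and pancreas glucokinase.

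The prior count of 2 shrinks differences where surface counts are near 0, so the order of the largest differences depends on it. In the edgeR fit of controls the log2 fold change was 9.90 in ENSAMXG00000016289 and 9.27 in ENSAMXG00000006950. ENSAMXG00000016289 had no count in any surface library, so its value is not an estimate of a finite fold change. Its counts allow only the lower bound given below, and they do not settle the order of these genes. On the scale of the rule, the largest difference belonged to ENSAMXG00000006950, at 7.33 in controls. The cave control libraries held 373, 328 and 469 counts of it, and the UV-B libraries of cavefish 331, 387 and 440. In surface controls they were 1, 1, 0 and 1, and in surface UV-B libraries 0, 0, 0 and 1. The gene was thus near the counting limit in all 8 surface libraries and well counted in all 6 cave libraries. Its ratio of cave to surface controls, taken without the prior count, was 747, with an exact 95% counting interval of 255 to 3627. This interval, like the other counting intervals below, covers counting error only. It leaves out the spread between pools and the choice of the members by this same difference.

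The 3 next largest differences were 5.95 in ENSAMXG00000014061, 5.72 in ENSAMXG00000016289 and 5.60 in ENSAMXG00000038047. ENSAMXG00000014061 had 154, 145 and 77 counts in cave controls and 85, 53 and 85 counts in cavefish after UV-B, against a single count among the 8 surface libraries. Its ratio in controls was 720 with a counting interval of 128 to 28515. ENSAMXG00000016289 was the only member with no count in any surface library, whereas the cave libraries held 100, 107 and 81 counts in controls and 69, 99 and 118 after UV-B. At the limit of 3 counts over the surface controls, it was at least 184-fold higher in cave controls. ENSAMXG00000038047 was instead measurable in both populations. It had 154, 122 and 116 CPM in cave controls, with a mean of 131 ± 20.2 CPM (SD, n = 3), and between 1.44 and 4.41 CPM in surface controls, with a mean of 2.66 ± 1.25 CPM (SD, n = 4).

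The other members with a difference of at least 5 were ENSAMXG00000030626 (5.50), ENSAMXG00000037727 (5.39), ENSAMXG00000007744 (5.39) and ENSAMXG00000010192 (5.26). In ENSAMXG00000030626 the cave control libraries had 123, 152 and 144 CPM and the surface controls 2.33, 3.19, 3.15 and 2.88 CPM. ENSAMXG00000007744 had 127, 59 and 135 counts in cave controls and 0, 3, 0 and 1 in surface controls. ENSAMXG00000010192 had 99, 83 and 91 counts in cave controls, and its ratio to the surface controls was 174 with a counting interval of 59.0 to 850.3. Its cave UV-B libraries were uneven, with 27, 121 and 39 counts.

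Low surface counts were common but did not describe the whole group. In 4 members no surface library had more than 3 counts, and in 13 members none had more than 10. In cave libraries, the lowest count of any member was 21, and 46 members had at least 50 counts in all 6 libraries. The median SD of the log2 level was 0.49 in surface controls and 0.54 in surface UV-B libraries, and 0.22 and 0.21 in the corresponding cave groups. Counting error widens the log2 spread at low counts, and its part in these SDs was not tested. The SDs therefore do not compare how variable the populations were. Within cavefish, the 6 libraries spanned at most 1 on the log2 scale in 34 members, and over 2 in 2 members.

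In cavefish the members ranged widely in abundance. Their mean level in cave controls had a median of 15.8 CPM, with 31 members under 20 CPM and 11 over 100 CPM. The most abundant member, ENSAMXG00000043108, had 189, 256 and 343 CPM in cave controls, against 43.9, 38.9, 34 and 63.8 CPM in surface controls. Next was ENSAMXG00000033138 at 208.0 ± 11.6 CPM (SD, n = 3) in cave controls, compared with 25.3 ± 2.40 CPM (SD, n = 4) in surface controls. These 2 abundant genes were thus readily counted in surface fish, and their differences of 2.53 and 3.03 lay in the lower range of the group.

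A wider difference at high abundance was seen in ENSAMXG00000013939, with 154, 173 and 192 CPM in cave controls and 5.87, 6.57, 10.6 and 6.00 CPM in surface controls. ENSAMXG00000043427 had 175 ± 25.7 CPM (SD, n = 3) in cave controls and 23.2 ± 1.37 CPM (SD, n = 4) in surface controls. ENSAMXG00000035331 had 140 ± 5.82 CPM (SD, n = 3) and 21.4 ± 1.92 CPM (SD, n = 4). The clock output gene dbpb had 160 ± 8.78 CPM (SD, n = 3) in cave controls and 27.3 ± 1.62 CPM (SD, n = 4) in surface controls. These levels of dbpb were from a single time of day. CPM values were not divided by transcript length, so the order describes counts and not molecules.

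Taken as a sum, the members held 0.255 ± 0.0046% of all counts in cave controls (SD, n = 3) and 0.0282 ± 0.0011% in surface controls (SD, n = 4). After UV-B the shares were 0.2495 ± 0.0159% in cavefish (SD, n = 3) and 0.0271 ± 0.0010% in surface fish (SD, n = 4). Control and UV-B libraries overlapped in this share of raw totals within each population. On the TMM scale the order changed. The members summed to 2255, 2660 and 2715 CPM in cave controls and to 2974, 2997 and 3313 CPM after UV-B, without overlap. Abundant members weigh most in such a sum, and the median log2 fold change for UV-B over the members in cavefish was 0.12. In surface fish the TMM-scaled sums were 245 ± 10.8 CPM in controls and 267 ± 15.0 CPM after UV-B (SD, n = 4 each), with overlap, so that the direction in both populations depended on the scaling. Cave control 2 had the lowest normalised level of its group in 33 of the 56 members. The matching share over all genes was not counted, so nothing particular to the members is read from this. In cave control 2 the members' share of raw counts was 0.2496%, beside 0.2562% and 0.2584% in cave controls 3 and 4. The TMM factor of cave control 2 was 1.107 beside 0.963 and 0.952.

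The population difference was also present after UV-B, which the absence of overlap required in part. Its median was 3.74, with a range of 1.72 to 7.89, and 51 of 56 members stayed at or above 2.5. The difference was larger after UV-B in 28 members and smaller in 28. It moved by more than 1 in 8 members. In 3 of these it widened, namely from 4.58 to 5.62 in ENSAMXG00000013939, from 3.50 to 4.61 in cyp2r1 and from 2.80 to 4.34 in ENSAMXG00000026293. It narrowed in 5, with the largest step, from 4.91 to 2.79, in ENSAMXG00000037306. Values chosen as large in controls can be smaller in other libraries through the choice alone. When the rule was set on the UV-B libraries in place of the controls, an alternative added after the data were seen, it returned 79 genes, of which 48 were members. These were 85.7% of the 56 and 60.8% of the 79.

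**Figure D2:**
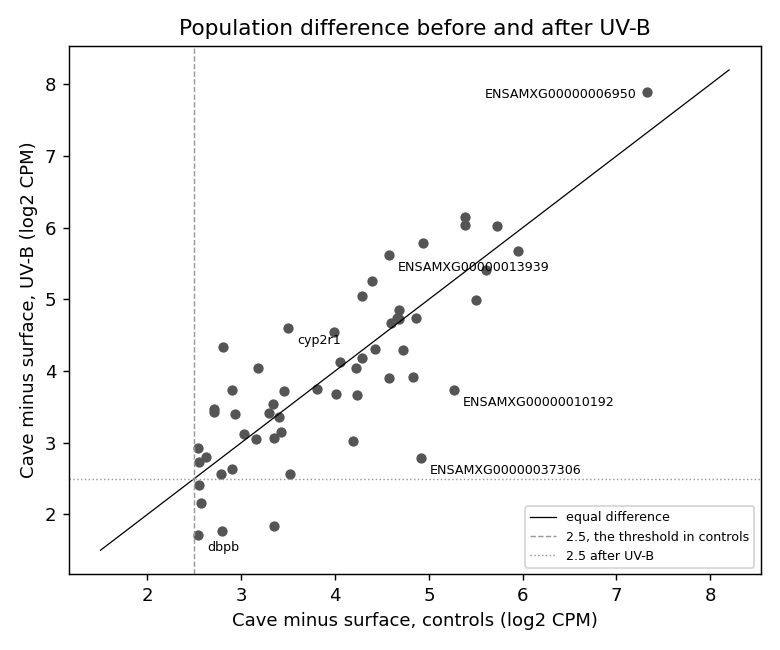
Cave minus surface difference in mean log2 CPM after UV-B (vertical axis) against the same difference in controls (horizontal axis), with 1 point per member. The solid line marks equal differences, the dashed line the threshold of 2.5 in controls and the dotted line 2.5 after UV-B. In controls all points lie between 2.53 and 7.33, and 51 of 56 lie at or above 2.5 after UV-B.

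Whether the members responded to UV-B was then asked within each population, with edgeR's quasi-likelihood test fitted to all genes and a Benjamini-Hochberg adjusted p under 0.05 taken as a call. In cavefish, 12 of the 56 members were called (21.4%), beside 26.3% of all genes tested. Of these, 7 were higher after UV-B and 5 lower, beside 12.6% and 13.8% of all genes. The median log2 fold change was 0.12 over the members and -0.01 over all genes. The share of members called was thus near that of all genes. The control libraries of these tests also entered the rule, which favours members whose cave controls are high by chance. Among the 79 genes chosen on the UV-B libraries, which favours the reverse, 19 were higher and 3 lower, and among the 48 genes common to both choices 7 were higher and 3 lower.

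The split by direction depended on the scaling. With library totals in place of TMM, 12 members were again called, 3 higher and 9 lower, and 8 of them were among the original 12. Under that scaling the median of all genes moved to -0.33 in cavefish. The count fell to 6 without cave UV-B library 1 and to 7 without cave UV-B library 4, while the share of all genes called fell to 15.3% and 15.7%. Groups did not overlap in 11 members that were higher and 6 that were lower after UV-B in cavefish, beside 20.2% and 21.2% of all genes. The calls of cyp2r1, ENSAMXG00000035834, ENSAMXG00000013939 and dbpb held under all 14 alternatives run for the cave comparison.

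The vitamin D hydroxylase gene cyp2r1 was among the members that rose. Its level was 15.2, 22.4 and 14.1 CPM in cave controls, and UV-B libraries of cavefish had 48.7, 33.7 and 40.0 CPM. Every UV-B library was above every control, and the log2 fold change was 1.24 ± 0.20 (SE; edgeR quasi-likelihood test, adjusted p = 0.000517). In surface fish cyp2r1 had 1.44, 1.50, 1.51 and 0.883 CPM in controls and 1.51, 2.12, 0.918 and 1.52 CPM after UV-B. These groups overlapped, at counts of 8 to 24 per library, and the log2 fold change was 0.22 ± 0.36 (SE; edgeR adjusted p = 0.688). The difference between the responses was 1.00 ± 0.37 (SE) and did not pass its own test (edgeR interaction, adjusted p = 0.152). Under the alternatives, the adjusted p of the interaction was between 0.0745 and 0.307. A difference in response between the populations was therefore not shown for cyp2r1.

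ENSAMXG00000035834 had a similar change. It rose from 35.0, 39.5 and 35.0 CPM in cave controls to 79.2, 85.2 and 80.7 CPM after UV-B, without overlap, at a log2 fold change of 1.16 ± 0.12 (SE; edgeR adjusted p = 1.96e-05). These were the only called members with a change of at least 2-fold in cavefish. In surface fish its mean was 1.60 ± 0.506 CPM in controls and 1.97 ± 0.453 CPM after UV-B (SD, n = 4 each), and it was not called (edgeR adjusted p = 0.570). Its interaction was 0.90 ± 0.27, with an edgeR adjusted p of 0.0672.

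ENSAMXG00000013939 went from 154, 173 and 192 CPM to 277, 277 and 378 CPM in cavefish. All UV-B libraries were above all controls, and the log2 fold change was 0.84 ± 0.15 (SE; edgeR adjusted p = 0.000955). Among the other members that were higher, ENSAMXG00000043108 went from 189, 256 and 343 CPM to 389, 423 and 541 CPM, at 0.78 ± 0.19 (SE; edgeR adjusted p = 0.00874). ENSAMXG00000035436 went from 71.4, 93.3 and 135 CPM to 127, 183 and 195 CPM, with overlap, at 0.75 ± 0.20 (SE; edgeR adjusted p = 0.0155). The smaller changes were 0.68 ± 0.22 in ENSAMXG00000039993 (edgeR adjusted p = 0.0362) and 0.34 ± 0.12 in ENSAMXG00000033138 (edgeR adjusted p = 0.0486). The call of ENSAMXG00000043108 was lost without cave UV-B 4 (adjusted p = 0.0512) and with library totals (0.0505). That of ENSAMXG00000035436 was lost without cave control 3 (0.0510), cave UV-B 2 (0.0538) or cave UV-B 4 (0.0776), and with library totals (0.115). That of ENSAMXG00000039993 was lost in 7 of 14 alternatives. Among them were fits without cave control 3 (0.0700), cave control 4 (0.0786), cave UV-B 1 (0.0935) or cave UV-B 4 (0.163), and with library totals (0.254). ENSAMXG00000033138 lost its call without any 1 of the 6 cave libraries, at adjusted p values of 0.0777 and 0.0775 without cave controls 2 and 3, 0.0844 without cave control 4, and 0.130, 0.0519 and 0.160 without cave UV-B 1, 2 and 4. With library totals its log2 fold change was 0.02, and its call was lost in 9 of the 14 alternatives.

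**Figure D3:**
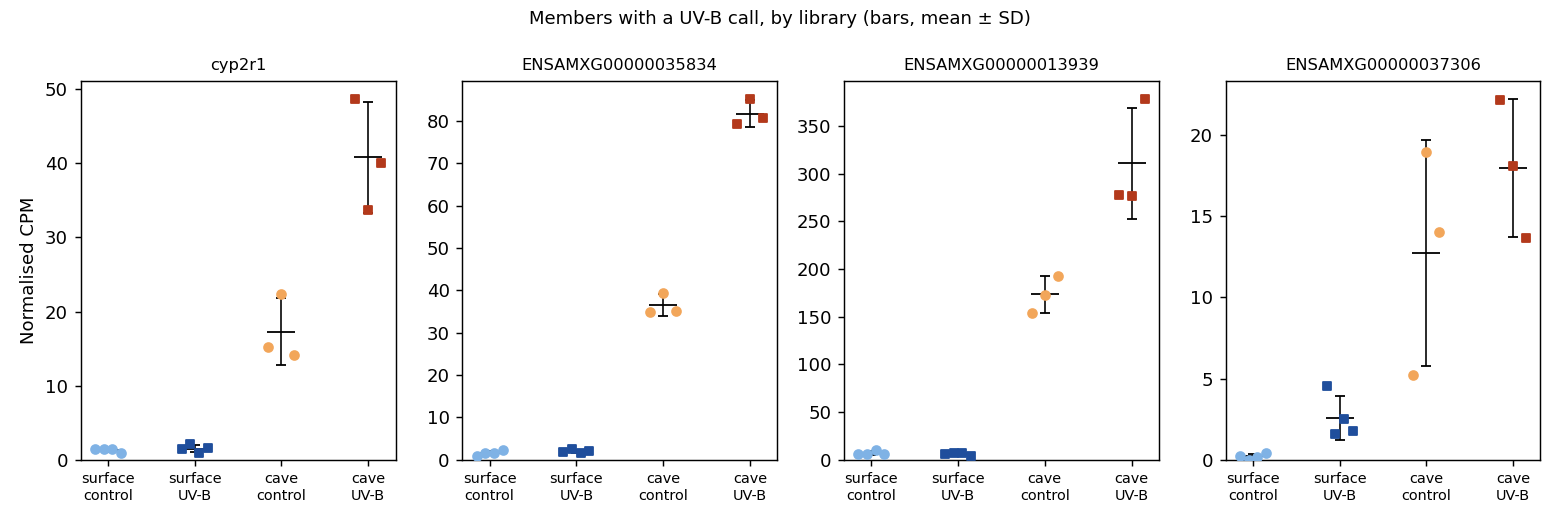
TMM-normalised CPM of cyp2r1, ENSAMXG00000035834, ENSAMXG00000013939 and ENSAMXG00000037306 in each library by group, with horizontal bars at the mean and vertical bars of 1 SD. The means of cyp2r1 are 17.3 CPM in cave controls and 40.8 CPM after UV-B, and ENSAMXG00000037306 is the gene of the 4 that was called in surface fish, at means of 0.206 and 2.59 CPM.

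Of the 5 members that fell in cavefish after UV-B, dbpb was the most abundant. Its level was 150, 163 and 166 CPM in cave controls and 103, 101 and 100.4 CPM after UV-B. No library overlapped between these groups, and the log2 fold change was -0.65 ± 0.11 (SE; edgeR adjusted p = 0.000833). In surface fish dbpb had 25.1, 27.5, 29.1 and 27.5 CPM in controls and 32.6, 33.6, 28.9 and 28.5 CPM after UV-B. These groups overlapped, and the change of 0.18 ± 0.10 did not pass the test (edgeR adjusted p = 0.214). The cave minus surface difference of dbpb narrowed from 2.54 in controls to 1.72 after UV-B, the smallest difference of any member after UV-B.

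The other 4 members that fell were less abundant. ENSAMXG00000035793 went from 78, 80 and 64 counts to 28, 25 and 41 counts, without overlap in CPM, at -0.92 ± 0.27 (SE; edgeR adjusted p = 0.0237). ENSAMXG00000042808 changed by -0.77 ± 0.25 (edgeR adjusted p = 0.0363), ENSAMXG00000037727 by -0.55 ± 0.16 (edgeR adjusted p = 0.0215) and ENSAMXG00000014455 by -0.49 ± 0.13 (edgeR adjusted p = 0.0155). Each of these 4 calls was lost when certain single libraries were left out, and in some other alternatives. Of 14 alternatives, ENSAMXG00000035793 lost its call in 5 (adjusted p up to 0.122) and ENSAMXG00000042808 in 7 (up to 0.232). ENSAMXG00000037727 lost its call in 5 (up to 0.0834) and ENSAMXG00000014455 in 4 (up to 0.0845). That of ENSAMXG00000035793 was lost without cave control 3 (0.0794), cave UV-B 1 (0.0892) or cave UV-B 2 (0.0733). That of ENSAMXG00000042808, whose cave controls were 20.4, 44.4 and 25.6 CPM, was lost without cave control 3 (0.232), cave UV-B 1 (0.103), cave UV-B 2 (0.133) or cave UV-B 4 (0.0735), and in limma-voom (0.0731). For ENSAMXG00000037727 the adjusted p was 0.0778 without cave control 3, 0.0555 without cave control 4, 0.0757 without cave UV-B 1 and 0.0723 without cave UV-B 2. For ENSAMXG00000014455 it was 0.0754 without cave UV-B 1 and 0.0599 without cave UV-B 4.

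In surface fish the low counts limited the test, and 30 of the 56 members passed the filter on low counts. The other 26 were not tested in that fit, so a lack of response in surface fish was not shown for them. Of the 30, 3 were called (10%), beside 28.8% of all genes tested. These were 2 that rose and 1 that fell, beside 13.4% and 15.4% of all genes. The count was 5 without surface control 4 and 7 without surface UV-B 2, of 31 members tested in each case, beside 29.6% and 27.9% of all genes. With library totals 1 was higher and 2 were lower, and the median of all genes moved to -0.18. None of the 30 members tested in both populations was called in both. The matching share over all genes was not counted, so nothing is read from this.

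The largest change of any member was that of ENSAMXG00000037306 in surface fish. It had 2, 0, 3 and 7 counts in surface controls and 39, 17, 22 and 16 counts after UV-B. Every surface UV-B library was above every control, at 2.59 ± 1.36 CPM against 0.206 ± 0.169 CPM (SD, n = 4 each), and the log2 fold change was 3.45 ± 0.56 (SE; edgeR adjusted p = 0.000305). Its call held under all 15 alternatives that tested it. The surface controls also entered the rule, which favours members whose surface controls are low by chance, and so a rise after UV-B. In cavefish the gene had 50, 169 and 125 counts in controls and 159, 118 and 110 counts after UV-B. These libraries overlapped and the change was not called, at 0.50 ± 0.34 (SE; edgeR adjusted p = 0.307).

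The other called members in surface fish were abundant in cavefish. ENSAMXG00000043427 fell from 22.5, 23.2, 22.1 and 25.2 CPM in surface controls to 19.3, 17.5, 13.8 and 11.9 CPM after UV-B, without overlap, at -0.57 ± 0.14 (SE; edgeR adjusted p = 0.00664). Its call held under all 16 alternatives. ENSAMXG00000030626 had 21, 34, 50 and 49 counts in surface controls and 28, 69, 61 and 36 counts after UV-B. On the CPM scale, with means of 2.89 and 5.14, it rose by 0.82 ± 0.27 (SE; edgeR adjusted p = 0.0313). This call was lost without surface control 1 (0.0778), surface control 3 (0.0569), surface control 4 (0.0524), surface UV-B 2 (0.0812) or surface UV-B 3 (0.106), and with library totals (0.0886). The surface controls of ENSAMXG00000030626 also entered the rule, which favours low surface controls and so a rise after UV-B.

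The difference in response between populations was tested as the population by UV-B interaction over all 14 libraries. It was called in 4 of 56 members (7.14%), beside 3.7% of all genes tested. The 26 members below the filter in surface fish entered this fit only through the cave libraries, where they are high, so the share over 56 is a description. With at least 10 counts required in every library, 18 members were tested and 3 were called, beside 4.32% of all genes. The controls of these 18 also entered the rule, and that filter keeps the members best counted in surface fish. Their share is therefore a description as well. Of the 4, 2 had a higher cave than surface response and 2 a lower one, beside 1.41% and 2.29% of all genes. Without cave UV-B 4 the count was 1, beside 2% of all genes. It was 2 without surface control 3 or surface UV-B 4, beside 2.97% and 2.45% of all genes. Library totals gave 1 higher and 2 lower, with the median of all genes at -0.12.

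Of these 4 genes, dbpb was called under all 21 alternatives, at adjusted p values of 5.42e-07 to 0.0194. Its interaction was -0.83 ± 0.13 (SE, edgeR adjusted p = 0.00112), from the fall in cavefish and the change of 0.18 in surface fish. With a difference of 2.54 in controls, dbpb lay just inside the threshold of the rule. The choice by both control groups favours a lower response in cavefish. The alternatives used controls that entered the rule, so they do not remove this limit. ENSAMXG00000013939 had a difference of 1.08 ± 0.27 (SE; edgeR adjusted p = 0.0248). It rose in cavefish, and its surface libraries were at 7.26 ± 2.23 CPM in controls and 6.20 ± 1.40 CPM after UV-B (SD, n = 4 each). Its call was lost without surface control 3 (0.0620), surface UV-B 4 (0.0622) or cave UV-B 4 (0.0721), with library totals (0.0517) and in limma-voom (0.0627).

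ENSAMXG00000043427 had a difference of 0.82 ± 0.20 (SE; edgeR adjusted p = 0.0233). It fell in surface fish, whereas its cave libraries were at 146, 195 and 185 CPM in controls and 189, 193 and 245 CPM after UV-B, with overlap (edgeR adjusted p = 0.212). The call was lost without surface UV-B 3 (0.0509), surface UV-B 4 (0.0533) or cave UV-B 4 (0.0753). ENSAMXG00000037306 had a difference of -2.93 ± 0.72 (SE; edgeR adjusted p = 0.0245), from the rise in surface fish. Both control groups entered the rule, which favours a lower response in cavefish than in surface fish through the choice alone. The call was lost in 7 of 20 alternatives. Among them were fits without surface control 2 (0.0578), surface control 3 (0.0571), surface UV-B 1 (0.0575), cave control 3 (0.0637) or cave UV-B 4 (0.0625), and limma-voom (0.165). In total, 41 of the 56 members were called neither for UV-B in either population nor for the interaction. Only 30 of the 56 were tested in surface fish, and the matching share over all genes was not counted. A lack of response is therefore not shown by this count.

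**Figure D4:**
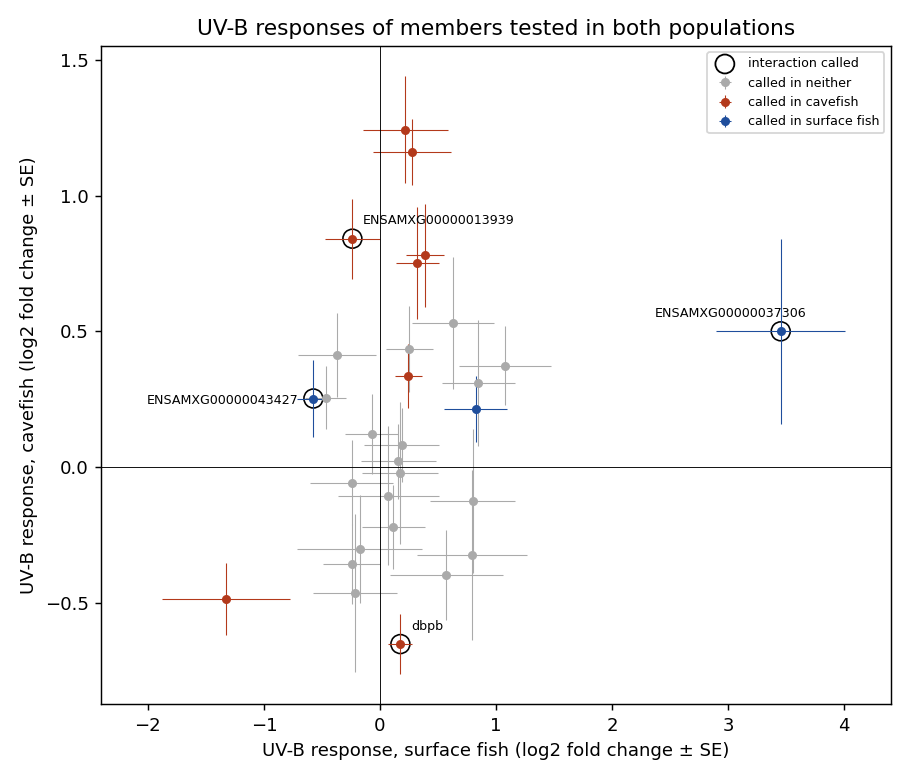
Log2 fold change for UV-B in cavefish (vertical axis) against that in surface fish (horizontal axis) for the 30 members tested in both populations, with bars of 1 SE. Red points were called in cavefish, blue points in surface fish and grey points in neither, and circles mark the 4 members called for the interaction. ENSAMXG00000037306 lies far to the right at 3.45, and dbpb lies lowest at -0.65.

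The other genes of the clock for which a name was available were examined beside dbpb. The list held 8 genes, namely dbpb, the light-inducible clock repressors per2 and cry1a, the clock regulators bhlhe40, cipcb and nfil3-5, the nuclear receptor rorc and the light-inducible photolyase cpdp. Names depended on lists ordered by response to UV-B, so the count of calls among them is no measure of the clock as a whole. All libraries were from a single time of day. For rhythmic genes, a difference in level or response therefore cannot be told apart from a difference in phase. In controls, dbpb was higher in cavefish, which the rule required of it as a member. Of the other genes of the list, 4 were lower and 3 were not called. In surface fish after UV-B, 7 were higher and dbpb was not called. In cavefish after UV-B, nfil3-5, cipcb and bhlhe40 were higher, dbpb, per2 and cry1a were lower and 2 were not called. With library totals bhlhe40 was no longer called in cavefish (adjusted p = 0.106) or surface fish (0.110), whereas the other named calls of the list in cavefish held. The list's median was 0.50 in surface fish and -0.03 in cavefish, beside 0.00 and -0.01 over all genes. Since the names came from lists ordered by response to UV-B, these medians too are no measure of the clock as a whole.

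The gene per2, which encodes a period protein, had 55.7, 55.6, 62.3 and 62.8 CPM in surface controls and 82.0, 88.3, 80.8 and 78.7 CPM after UV-B. In cavefish it had 50.3, 54.6 and 53.9 CPM in controls and 30.1, 34.8 and 33.7 CPM after UV-B. The groups did not overlap in either population. The log2 fold changes were 0.48 ± 0.08 in surface fish (SE; edgeR adjusted p = 0.000615) and -0.69 ± 0.13 in cavefish (SE; edgeR adjusted p = 0.00169). The interaction of -1.17 ± 0.14 (SE; edgeR adjusted p = 7.72e-05) was called under all 21 alternatives.

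The cryptochrome gene cry1a fell in cavefish, from 82.4, 86.3 and 86.7 CPM to 43.1, 63.0 and 45.8 CPM, without overlap (log2 fold change -0.75 ± 0.15, SE; edgeR adjusted p = 0.00208). In surface fish it went from 142 ± 5.96 CPM to 167 ± 11.8 CPM (SD, n = 4 each), a change of 0.24 ± 0.08 (SE; edgeR adjusted p = 0.0340). That surface call was lost in 7 of 16 alternatives, among them library totals (0.06, adjusted p = 0.601) and leaving out surface control 1 (0.0687), 2 (0.0753) or 3 (0.0817) or surface UV-B 3 (0.106) or 4 (0.0584). The interaction of cry1a, -0.99 ± 0.16 (SE; edgeR adjusted p = 0.000986), was called under all 21 alternatives. The genes dbpb, per2 and cry1a were the 3 genes of the list called for the interaction, each with the lower response in cavefish. Of the 3, dbpb was higher in cave than in surface controls, as the rule required. In the same contrast cry1a was lower in cave controls at -0.75 ± 0.10 (SE; edgeR adjusted p = 8.42e-05) and per2 was not called (edgeR adjusted p = 0.242).

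**Figure D5:**
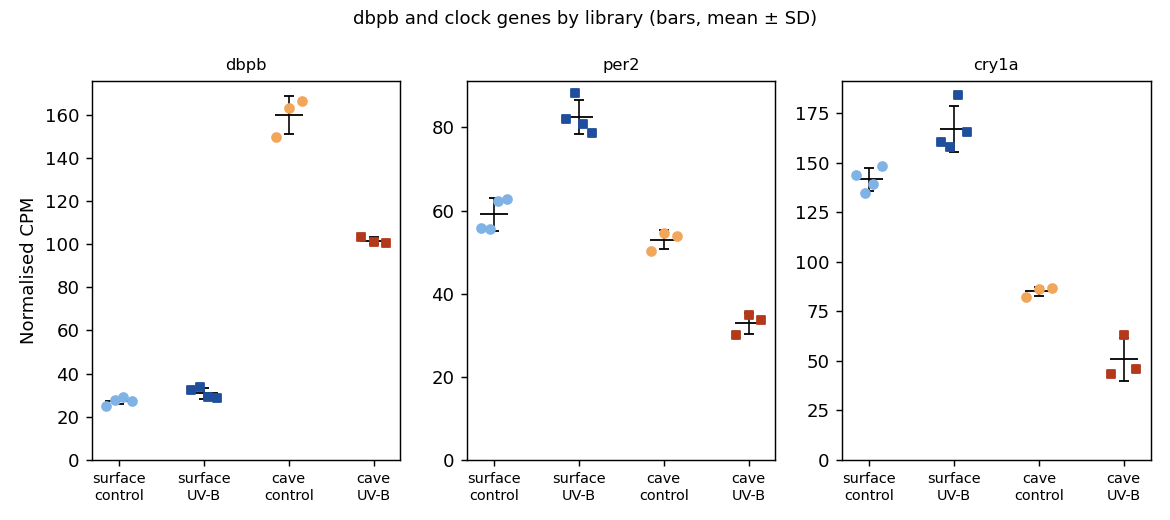
TMM-normalised CPM of dbpb, per2 and cry1a in each library by group, with horizontal bars at the mean and vertical bars of 1 SD. All 3 genes are lower after UV-B in the cave libraries, where the means of dbpb are 160 and 102 CPM. The level of dbpb is higher in cave than in surface controls, as the rule required.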

How the data were processed

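RNA was sequenced by the study from pools of whole larvae. The file deposited by the authors held raw counts of reads for each gene, made with STAR (version not given in the sources used here) on version 2.0 of the A. mexicanus genome, with the Ensembl release 108 annotation. That assembly came from a surface fish, and reads of both populations were mapped to it. The strand column, the treatment of reads with several matches and any gene filter were not given, so near-identical copies and overlapping or antisense genes are uncertain, and the deposited counts, being lower than those of the study's supplementary count sheet for nearly all genes compared, may omit part of the reads. Every row named a gene, each column matched a single sample label, and 0 columns were left unused.

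Counts were analysed with edgeR 4.0.16 in R 4.3.3 (TMM, filterByExpr, glmQLFTest, Benjamini-Hochberg adjustment over all genes tested). Each population was fitted alone without covariates, and the interaction used all 14 libraries. SEs were obtained from the F statistic, as the size of the fold change over the root of F. DESeq2 1.42.0 and limma 3.58.1 (voom) were alternatives, beside other scalings, filters, thresholds, priors and each library left out. Replicates differed by a chi-square of 5.01 to 18.5 per degree of freedom, so none was a repeat. P-values measure only the spread between these pools, which may in part be technical. Members and lists were chosen with earlier results of these data known. Genes named were those with a name, the 8 largest differences, the 8 most abundant, up to 6 called in each direction per comparison, and those next to a threshold. ENSAMXG00000026293 and the genes of the clock list other than dbpb were described in addition, the former after its values were seen.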

Additional observations from a re-analysis of the deposited data

Results flagged for a closer look

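In the 4 surface controls, the log2 CPM of cyp2r1 was 0.12 in replicate 4 and between 0.71 and 0.78 in the other 3, a gap wide enough for Dixon's 95% limit. These levels rest on 13, 16, 24 and 15 counts in replicates 1 to 4, and the part of counting error in the gap was not tested. The share of counts held by the members was 0.0266% in surface control 1 and 0.0287 to 0.0289% in the other 3, again past that limit. Chance gives about 1 such sample in 20 groups, and 33 groups were checked.

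The edgeR interaction test called a difference in the response to UV-B between cavefish and surface fish in 4 members, beside 3.7% of all genes. Of these calls, only that of dbpb held under all 21 alternatives. The alternatives used controls that also chose the members, a choice that favours a lower response in cavefish. The cave minus surface difference in response was 1.08 in ENSAMXG00000013939, 0.82 in ENSAMXG00000043427, -0.83 in dbpb and -2.93 in ENSAMXG00000037306.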

How the results depend on the processing

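The number of members was 56 and became 36 when a mean of 100 counts was required and 92 at a difference of at least 2. It was between 50 and 71 under the other scalings, priors and thresholds except a difference of at least 3 (42), and between 53 and 62 with 1 library left out. The count of members called in cavefish, 12, ranged from 6 to 14 with 1 library left out, beside 15.3% to 26.7% of all genes. In surface fish, 3 calls among 30 members tested became 8 among 56 with all 14 libraries in 1 model, beside 23.6% of all genes. In that model 26 members passed the filter only through the cave libraries. The surface count ranged from 2 to 7 with 1 library left out, beside 21.1% to 29.6% of all genes. For the interaction, 4 calls became 8 with the DESeq2 Wald test and 2 with limma-voom, beside 6.32% and 2.6% of all genes. With 1 library left out the interaction calls ranged from 1 to 6, beside 2% to 5.09% of all genes. The summed share, with TMM-scaled totals, was 0.0245% in surface controls and 0.309% in cave UV-B libraries, and with 1 library left out it ranged from 0.0280 to 0.0288% and from 0.243 to 0.258% in these groups. Members with at most 10 counts in every surface library numbered 13, beside 4 with at most 3. Over single genes, 285 alternative values kept their side of the threshold and 64 lost the call. No call of a single gene changed sign. The causes were not tested.

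Same-numbered control and UV-B libraries did not deviate together in surface fish (correlations of -0.05 to 0.14). In cavefish 2 numbers were shared, with correlations of 0.23 and 0.14 beside -0.23 to 0.13 for other pairs, which is too few to establish pairing, so the numbers were not taken as pairs. With the replicate number as a block, 9 members were called in cavefish, 5 in surface fish and 3 for the interaction. The shares of all genes called were 22.9%, 28.9% and 2.06%. Of the 12 calls in cavefish, 6 were kept under the block.

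In surface fish 26 members were below the filter on low counts, and 8 of the 12 calls in cavefish were lost without certain single libraries.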
